A study of Ovis aries with 95 samples.

Results

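The step from 120 d to 130 d of gestation in the cortex of the fetal sheep was compared on 8 arrays, 4 at each age, of the 95 arrays in the series. The 8 arrays were chosen by their labels alone, as those of the cortex at these ages. The question was which genes changed their level in the cortex over this interval of late gestation. The labels name no treatment, a section of the frontal cortex was taken from each, and each array was hybridized with Cy3-labeled RNA of 1 sample, so that a value is a level on an array and not a ratio. Both ages are before birth, and the study's methods describe ewes without signs of labor. Each age included a set of twins that the labels do not mark. They were counted as separate animals. The p-values rest on a spread between arrays that is pooled over all 24 cortex arrays of the series, not on that of the 8 alone. All levels and changes below are on the log2 scale after normalization, a change is 130 d minus 120 d, and a gene passed at an adjusted p under 0.05 in limma.

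By this stage of gestation the cortex of the sheep has made most of its neurons. Neurons are then extending processes and forming synapses, astrocytes and the capillary network mature, and oligodendrocytes begin to wrap axons in myelin. Glutamate released at the new synapses is cleared by transporters in the membrane of astrocytes, and glucose enters the brain through transporters in the wall of its capillaries. Dividing progenitor cells and the proteins that support their growth become a smaller share of the tissue. The RNA is from whole tissue, so that fewer cells of a type and less RNA per cell cannot be told apart.

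Of 12905 genes tested in cortex, 893 had a symbol and the others were named here by the accession of their sequence. At least 1 of these also had a description of its product on the array. The probes are 60 bases long. The sequences of the probes for YBX1, the gene with the smallest p, and for EE802379, the largest rise among the genes without a symbol that passed, show what was measured. They are copied from the deposited array files in lower case with no part marked, 5′ to 3′, and no genome position was assigned to them.
YBX1, the first probe: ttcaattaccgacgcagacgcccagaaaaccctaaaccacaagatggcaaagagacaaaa
YBX1, the second probe: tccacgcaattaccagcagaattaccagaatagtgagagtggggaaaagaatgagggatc
EE802379: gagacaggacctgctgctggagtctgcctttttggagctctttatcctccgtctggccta
The YBX1 probes have different sequences, and they gave changes of -0.99 and -1.0. Whether they overlap on the transcript was not tested. The EE802379 probe has no stop codon in any of 3 reading frames and a GC content of 55%, against a median of 45% over all probes kept.

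ADCYAP1, the neuropeptide PACAP that raises cyclic AMP in its target cells, had the largest rise of the genes that passed. YBX1, an abundant protein that binds DNA and RNA, fell by 1.00 on the log2 scale. In all, 165 genes passed (1.28% of those tested), 103 higher at 130 d (0.798%) and 62 lower (0.48%). The higher genes had a median rise of 0.55, from 0.24 to 1.86, and the lower ones a median change of -0.57, from -0.32 to -1.12. With a symbol there were 10, of which ADCYAP1, EAAT1, GLUT-1, HPCAL1, BEGAIN and ATP6V1E1 rose and YBX1, COL4A3, MYC and PTGFR fell. All 130 d arrays lay above all 120 d arrays for 89 of the 103 higher genes, against 5.31% of all genes tested. They lay below them for 56 of the 62 lower ones, against 4% of all. These genes were chosen by the p of the same arrays, so the counts are no separate support. Of the genes that passed, 7 had a change of at least 1 in either direction. Before adjustment 2045 genes, 15.8% of those tested, had a p under 0.05.

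The number of genes that passed depended on single arrays. It was 13 without 120 d replicate 2, 11 without 120 d replicate 3, 10 without 130 d replicate 2, 22 without 130 d replicate 4, 98 without 130 d replicate 3 and 918 without 120 d replicate 4. With only the 8 arrays in the fit 0 genes passed in limma (2154 at an unadjusted p under 0.05), while with the slide as a block 361 passed. Replicate numbers 1 and 4 at 120 d resembled a 130 d array most, and replicates 1 and 4 at 130 d a 145 d array. The 8 arrays had 73.9 to 83.3% of their gene spots well above background, and arrays of one group in cortex correlated with 0.980 to 0.995.

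**Figure D1:**
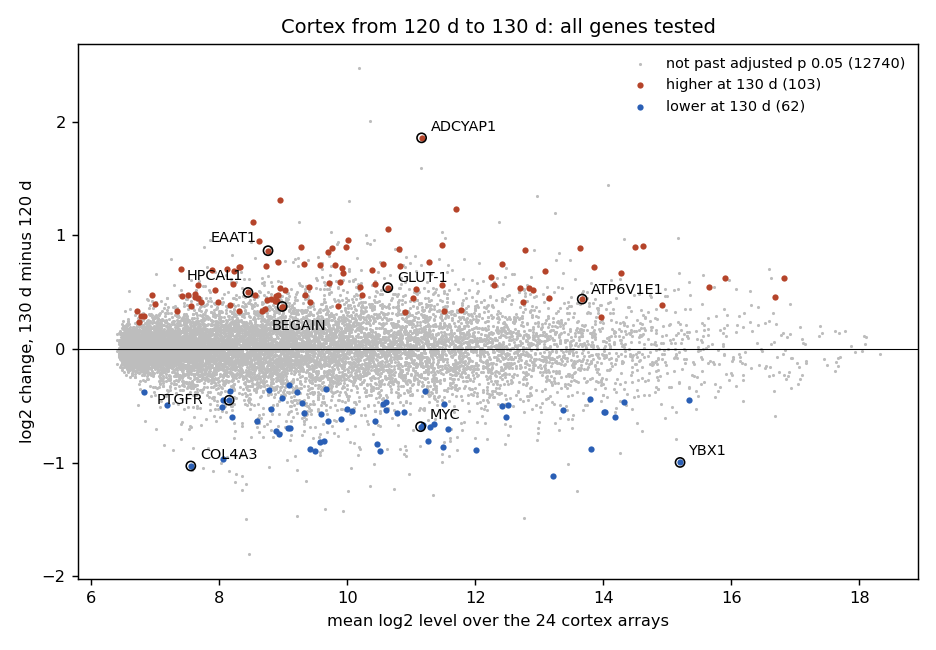
Each point is 1 of the 12905 genes tested in cortex, with its mean log2 level over the 24 cortex arrays on the horizontal axis and its log2 change from 120 d to 130 d on the vertical axis. The 103 genes higher at 130 d are red, the 62 lower ones blue, the others grey, and the 10 with a symbol are circled, with ADCYAP1 at 1.86 as the highest red point and YBX1 at -1.0 among the most abundant.

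ADCYAP1 was measured by a pair of probes. At 120 d its level was 10.93, 9.79, 9.20 and 10.28 in replicates 1 to 4, and at 130 d it was 11.94, 12.16, 11.46 and 12.07. The lowest 130 d array was above the highest 120 d array, and the spread at 120 d was the wider, with 10.05 ± 0.74 against 11.91 ± 0.31 (SD, n = 4 each). The change was 1.86 (SE 0.28, limma adjusted p = 0.0051), a 3.63-fold rise with a 95% interval of 2.41 to 5.45. Its probes gave 1.83 and 1.89, and within the 3 slides the difference was 1.12, 1.97 and 1.79. It passed without any one of the 8 arrays. CRHBP, which binds the stress peptide CRH and keeps it from its receptor, had a change of 0.96 that did not pass (adjusted p = 0.055), and SST, the neuropeptide of a class of inhibitory neurons, had 0.97 (adjusted p = 0.0772). SST was 14.31, 13.31, 13.62 and 15.18 at 120 d and 14.87 to 15.19 at 130 d, so that 120 d replicate 4 already lay with the older arrays. NPY, another peptide of inhibitory neurons, was at 12.72 and 12.91, a difference of 0.19 (adjusted p = 0.499).

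EAAT1 is the file's name for SLC1A3, the glutamate transporter of astrocytes. It stood at 8.82, 8.28, 8.44 and 8.88 in the 120 d arrays and at 9.76, 9.17, 9.26 and 9.69 in the 130 d arrays. The ages did not overlap, though the highest 120 d and the lowest 130 d arrays were close. EAAT1 rose by 0.86 (SE 0.20, adjusted p = 0.0362), which is 1.82-fold (95% interval 1.37 to 2.43). The other astrocyte genes were looked at as a list of 34 symbols, of which 10 had a named probe and were tested. EAAT1 was the 1 that passed, 9 of 10 had a change above 0, and the median was 0.14. Over all 12905 genes tested, 6576 were above 0 and 6329 below, with a median of 0.0033. GFAP, the intermediate filament of astrocytes, was 9.63, 9.57, 9.68 and 9.41 at 120 d and 10.38, 9.86, 10.28 and 10.37 at 130 d. These arrays do not overlap either, and the change of 0.65 did not pass (adjusted p = 0.0719). GJA1, the main gap junction protein of astrocytes, had 0.28, and AQP4, their water channel, -0.07. EAAT2, the other astrocyte glutamate transporter, had 0.14 (adjusted p = 0.623). EAAT1 did not pass without 120 d replicate 2 or 3 or without 130 d replicate 1, 2 or 4 (adjusted p up to 0.157). With the processed signal in place of the normalized one the list's median was 0.44.

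GLUT-1, or SLC2A1, carries glucose across the blood-brain barrier. Its level at 120 d was 10.74, 10.52, 10.83 and 10.52, and at 130 d it was 10.92, 11.36, 11.25 and 11.24. The ages did not overlap, with 130 d replicate 1 nearest to the younger arrays. GLUT-1 rose by 0.54 (SE 0.11, adjusted p = 0.0229), 1.45-fold with a 95% interval of 1.23 to 1.71. It belongs to a list of endothelium and blood-brain barrier genes, of which 19 were tested and 15 had a change above 0, with a median of 0.12. GLUT-1 was the 1 that passed. EDN1, the vessel-constricting peptide endothelin, was 7.72 to 7.83 at 120 d and 7.92 to 8.53 at 130 d, a difference of 0.42 (adjusted p = 0.152). NOS3, the endothelial nitric oxide synthase, had 0.39 (adjusted p = 0.129), and PECAM1, an adhesion molecule of all endothelium, 0.09 (adjusted p = 0.861). VEGFA, the growth factor of vessels, had -0.56 (adjusted p = 0.149), with 120 d replicate 4 at 8.05 and the other 120 d arrays at 8.68 to 9.0. SLC2A3, the glucose transporter of neurons, had 0.33 and HK1, the hexokinase of brain, -0.57, and neither passed (adjusted p = 0.491 and 0.126). Over the oxygen response and glucose uptake list, 9 of 13 were above 0 and the median was 0.07. Over glycolysis and mitochondrial energy 8 of 18 were above 0 and 0 passed, with a median of -0.04. GLUT-1 did not pass without 120 d replicate 2 or 3 or without 130 d replicate 2, 3 or 4 (adjusted p up to 0.103).

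The remaining rises with a symbol were smaller. HPCAL1, a calcium sensor of the hippocalcin family, was 8.31, 8.05, 8.21 and 8.2 at 120 d and 8.72, 8.56, 8.70 and 8.77 at 130 d. No 120 d array reached the 130 d arrays, and the gene rose by 0.50 (SE 0.12, adjusted p = 0.0395), 1.41-fold with an interval of 1.19 to 1.67. BEGAIN, a protein of the postsynaptic density, was 9.01, 8.68, 8.86 and 8.95 and then 9.26, 9.30, 9.19 and 9.25. Its ages did not overlap, and it rose by 0.37 (SE 0.079, adjusted p = 0.0229), 1.30-fold with an interval of 1.16 to 1.45. ATP6V1E1, a subunit of the proton pump that acidifies lysosomes and synaptic vesicles, was 13.36, 13.31, 13.16 and 13.61 and then 13.58, 13.95, 13.84 and 13.84. Here 120 d replicate 4 lay above 130 d replicate 1, and the gene rose by 0.44 (SE 0.088, adjusted p = 0.0196), 1.36-fold with an interval of 1.19 to 1.54. HPCAL1 passed only without 120 d replicate 4 (adjusted p up to 0.163 without another array), while BEGAIN and ATP6V1E1 each failed without 120 d replicate 2 or 3 or 130 d replicate 2 or 4 (up to 0.116 and 0.0911).

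BEGAIN was in none of the lists, and its change was set beside the list of synapse and neurotransmission genes. Of the 11 tested genes of that list 0 passed and 5 were above 0, with a median of -0.12. The members above 0 were SST with 0.97, NPY with 0.19, the muscarinic receptor CHRM3 with 0.17, the serotonin transporter SLC6A4 with 0.01 and OPRK1, the kappa opioid receptor, with 0.00. GRIA1, GRIA2, GRIA3 and GRIN1, subunits of glutamate receptors, had changes of -0.63, -0.34, -0.25 and -0.25. In the lysosome list 0 of 14 passed and 9 were above 0, with a median of 0.09. Among genes of neuronal differentiation and migration 0 of 6 passed, 2 were above 0 and 4 below, and the median was -0.16. Their changes ran from 0.36 for NKX6.1, a transcription factor, to -0.30 for BCL2, an inhibitor of cell death, and NEUROD1 and PAX6, transcription factors of the neuronal lineage, had -0.23 and -0.24.

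YBX1 had the smallest p of all genes tested. Its level was 15.82, 16.14, 15.99 and 15.69 at 120 d and 15.04, 14.72, 14.99 and 14.90 at 130 d. The lowest 120 d array was above every 130 d array by more than the SD of either age, with 15.91 ± 0.19 against 14.91 ± 0.14 (SD, n = 4 each). YBX1 fell by 1.00 on the log2 scale (SE 0.13, adjusted p = 0.0018), 2.00-fold with a 95% interval of 1.66 to 2.41. The differences within the slides were -0.945, -1.08 and -0.789, and the gene passed without any one of the 8 arrays. MYC, a transcription factor of growing and dividing cells, was 11.33, 11.40, 11.39 and 11.11 and then 10.79, 10.49, 10.71 and 10.51. It fell by 0.68 (SE 0.15, adjusted p = 0.031) with no overlap, 1.61-fold with an interval of 1.29 to 2.01. MYC did not pass without 120 d replicate 1, 2 or 3 or 130 d replicate 2, 3 or 4 (adjusted p up to 0.117).

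YBX1 was the 1 of 14 tested genes of the cell cycle list that passed, and it is a regulator of transcription and translation rather than a part of the division machinery. A change below 0 was seen for 13 of the 14, against 6329 of all 12905 genes tested, and the median was -0.20. The highest of the 8 levels was in 120 d replicate 2 for 4 of the 14 and in replicate 3 for 5. Of all genes, 12.9 and 16.2% were highest in these arrays. TYMS, which makes the thymidine nucleotide for DNA synthesis, was 8.09 to 8.38 at 120 d and 7.65 to 7.91 at 130 d, a difference of -0.45 (adjusted p = 0.0774). CDK1, the kinase that drives mitosis, had -0.30 (adjusted p = 0.185), PCNA, the sliding clamp of DNA replication, -0.26 (adjusted p = 0.283), and CDKN1B, an inhibitor of cell division, 0.07. ODC1, which starts polyamine synthesis, had -0.34 (adjusted p = 0.138). In the ribosome and translation list 0 of 19 passed and 16 were below 0, with a median of -0.19, and -0.51 with the processed signal. Here 120 d replicates 2 and 3 were each highest for 7 of the 19. RPL10 and RPSA, proteins of the large and small ribosomal subunit, had -0.46 and -0.42. RACK1, a scaffold protein on the ribosome, had -0.42 (adjusted p = 0.0652).

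COL4A3, a chain of the collagen of basement membranes, was 8.17, 8.50, 8.78 and 7.53 at 120 d and 7.49, 7.04, 7.23 and 7.10 at 130 d. The ages did not overlap, but 120 d replicate 4 was within 0.1 of the highest 130 d array. COL4A3 fell by 1.03 (SE 0.20, adjusted p = 0.0193), 2.04-fold with an interval of 1.53 to 2.72. PTGFR, the receptor of prostaglandin F, was 8.28, 8.13, 8.44 and 8.35 and then 7.94, 7.69, 8.07 and 7.69. It fell by 0.45 (SE 0.097, adjusted p = 0.0239) with no overlap, 1.37-fold with an interval of 1.19 to 1.57. PTGFR was the 1 of 40 genes of the growth factor and hormone receptor list that passed, with 27 of the 40 below 0 and a median of -0.04. INHBA, a subunit of activin, was at 11.78 ± 0.16 and 11.01 ± 0.27 (SD, n = 4 each) with no overlap, and ACVR2B, a receptor of activin, was at 9.06 and 8.60. Neither passed, with changes of -0.78 and -0.46 and an adjusted p of 0.0777 for both. COL4A3 and PTGFR did not pass without 120 d replicate 2 or 3 or 130 d replicate 2 or 4 (adjusted p up to 0.0911 and 0.108).

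Several genes with a symbol came near the threshold without passing. Nearest were SRI, the calcium-binding protein sorcin, at 14.40 ± 0.067 and 14.05 ± 0.029 (change -0.36, adjusted p = 0.0508), and ITGB1, the beta chain shared by many integrins, at 9.91 ± 0.14 and 10.30 ± 0.078 (change 0.39, adjusted p = 0.0513, SD with n = 4 for both genes). The ages of SRI and of ITGB1 did not overlap. SLIRP, which binds RNA in mitochondria, had -0.47 (adjusted p = 0.0525), and ERP29, a chaperone of the endoplasmic reticulum, -0.35 (adjusted p = 0.0576). CAPNS1, the small subunit of calpain, had 0.51 (adjusted p = 0.0642), RHOF, a small GTPase, 0.40 and COL2A1, the collagen of cartilage, 0.79 (adjusted p = 0.0652 for both). The RHOF probe was well above background on 3 arrays at 120 d.

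**Figure D2:**
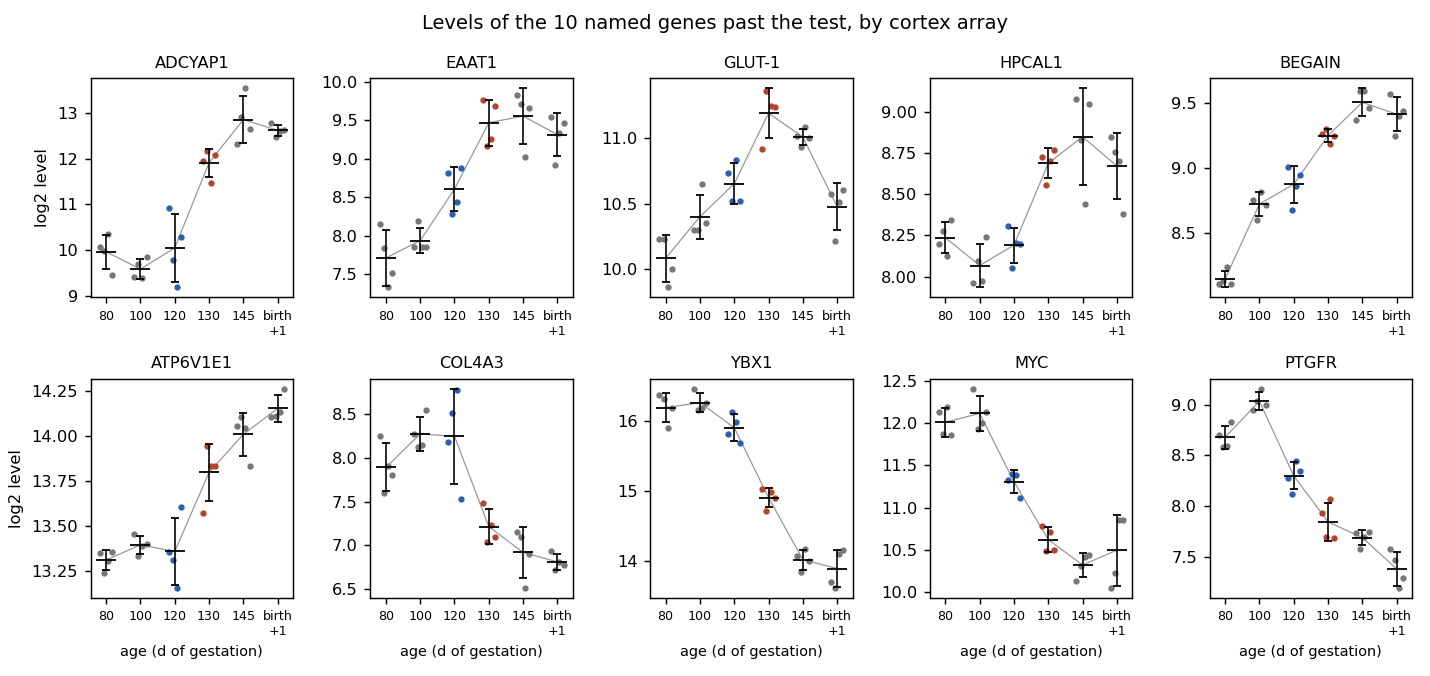
Each panel plots the log2 level of 1 of the 10 genes with a symbol that passed, by age in d of gestation and 1 d after birth, with a point for each cortex array (120 d blue, 130 d red, other ages grey), a bar for the mean, whiskers of 1 SD and a line between the means (n = 4 per age). ADCYAP1 goes from 10.05 to 11.91 between 120 d and 130 d, YBX1 from 15.91 to 14.91, and GLUT-1 is at its highest mean, 11.19, at 130 d.

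Of the genes without a symbol 155 passed, 97 higher and 58 lower. EE802379 was 9.09, 8.10, 8.31 and 8.53 at 120 d and 9.50, 9.94, 10.22 and 9.62 at 130 d. It rose by 1.31 (SE 0.26, adjusted p = 0.0193) with no overlap. EE852827 was 11.59, 11.23, 11.21 and 12.16 and then 12.40, 12.49, 12.83 and 13.40, also apart, a rise of 1.23 (adjusted p = 0.0193). Among the lower ones, GO695698 went from 13.70, 13.91, 13.90 and 13.70 to 12.40, 12.56, 13.12 and 12.64, apart, a change of -1.12 (adjusted p = 0.0325). EE770129 was 8.52, 8.16, 9.03 and 7.84 and then 7.65, 7.02, 7.62 and 7.39, also apart, a change of -0.97 (adjusted p = 0.049). What these transcripts encode was not determined here. Each of the 4 lost its call without 120 d replicate 2 or 3, EE802379 also without 130 d replicate 2 and EE852827 also without 130 d replicate 4. GO695698 passed only without 120 d replicate 4 or 130 d replicate 3, and EE770129 only without 120 d replicate 4 (adjusted p up to 0.189). EE770129 also lost its call in 4 of 12 other settings (adjusted p up to 0.128). Among them were the authors' table and no filter on dim probes. Another of the 97 higher genes, TC9765, is described on the array as a partial match to latent transforming growth factor beta binding protein 4. It rose by 0.47 (limma adjusted p = 0.0229).

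Genes of oligodendrocytes and myelin were all at a higher mean at 130 d, and 0 of the 6 tested passed. TF, the iron carrier transferrin, had the largest difference, 1.12, followed by CRYAB, a small heat shock protein of oligodendrocytes, with 0.92, CD9 with 0.40, CX32, a gap junction protein of myelinating cells, with 0.32, CD81 with 0.29 and FTH1, the ferritin heavy chain, with 0.09. Their median was 0.36 (0.64 with the processed signal, and 0.23 without 120 d replicate 4). CRYAB was 10.38, 9.91, 10.54 and 9.42 at 120 d and 10.65, 11.11, 10.71 and 11.47 at 130 d. It was higher on every 130 d array but missed the threshold (adjusted p = 0.0603). TF was 13.45, 12.06, 13.98 and 10.95 and then 13.54, 13.81, 13.01 and 14.56, so that its ages overlap widely (adjusted p = 0.228). CD9 and CD81 are membrane proteins of many cell types. The main myelin proteins of the list had no probe with a symbol here, although the study reports MBP from these arrays. CD1D, ITGAM, IL10 and TGFB1, immune genes that the study's text names, had 0.08, 0.15, -0.07 and 0.25, and none passed.

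**Figure D3:**
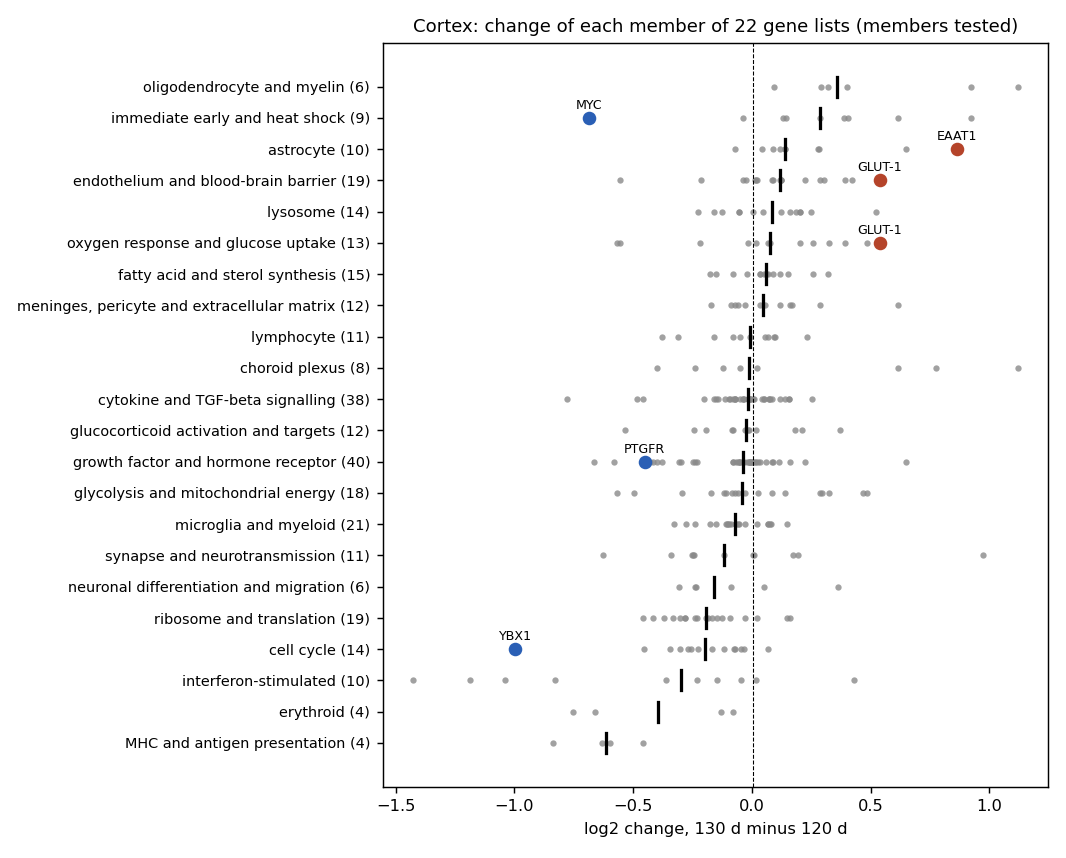
Each row is 1 of 22 gene lists with the number of members tested, each point the log2 change of 1 member from 120 d to 130 d in cortex, and each vertical bar the list's median. Large red and blue points are members that passed: EAAT1 and GLUT-1 higher, YBX1, MYC and PTGFR lower. The oligodendrocyte and myelin list has the highest median, 0.36, and the MHC and antigen presentation list the lowest, -0.61, with all 8 arrays. They were 0.23 without 120 d replicate 4 and 0.03 without 120 d replicate 2.

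The immediate early and heat shock list had a median of 0.29, with 7 of 9 genes above 0, although MYC, the 1 that passed, fell. FOS, a transcription factor that follows neuronal activity, was 8.19 to 8.76 at 120 d and 8.80 to 9.56 at 130 d, a difference of 0.61 (adjusted p = 0.165). EGR1, another gene of that kind, had 0.29 (adjusted p = 0.286), and JUNB 0.14. Among genes of glucocorticoid activation and response, 0 of 12 passed and the median was -0.02. HSD11B1, the enzyme that makes cortisol from cortisone, was at 8.74 and 8.21 with overlap (adjusted p = 0.0777), and NR3C1, the glucocorticoid receptor, at 7.04 and 6.96. Of the fatty acid and sterol synthesis genes 0 of 15 passed, with a median of 0.06, and FASN, the fatty acid synthase, had 0.32 (adjusted p = 0.191). The cytokine and TGF-beta signalling list (38 tested, median -0.02), the microglia and myeloid list (21, -0.07), the lymphocyte list (11, -0.01) and the meninges, pericyte and extracellular matrix list (12, 0.05) had 0 genes past the test.

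A single array stood apart in the MHC and interferon genes. In 120 d replicate 2, B2M, the light chain of MHC class I, was at 16.36 and the other 120 d arrays at 13.60 to 13.77. OVAR, a heavy chain of MHC class I, was at 15.44 against 12.25 to 12.49, and MHCII-DRB1, a chain of MHC class II, at 11.86 against 8.14 to 8.25. PSMB8, a subunit of the immunoproteasome, was at 9.57 against 7.29 to 7.62. CXCL10, a chemokine induced by interferon, was at 13.04 against 7.64 to 8.27, ISG15 at 13.60 against 9.66 to 10.37 and MX1 at 12.65 against 9.80 to 10.13. These last 3 were picked after their values had been seen. The 130 d arrays lay with the other 120 d arrays, at 13.75 to 14.09 for B2M. The MHC list had B2M, OVAR, OVAR-DQA1 and PSMB8 as its tested genes, and MHCII-DRB1 was in none of the lists. On this array 4 of 4 listed MHC genes and 8 of 10 interferon genes had the highest of the 8 levels. So did 13 of 21 microglia and myeloid genes and 6 of 11 lymphocyte genes, against 12.9% of all genes. The list medians of -0.61 (MHC) and -0.30 (interferon) became 0.03 and 0.007 without it. None of the 4 MHC and 10 interferon genes passed, with an adjusted p of 0.349 for ISG15, 0.749 for B2M and, as the lowest, 0.0999 for IFNAR1, a chain of the interferon receptor with a change of 0.43. CD3D and CD3E, which mark T cells, had means of 7.01 and 7.47 over the 4 arrays at 120 d. Their means at 130 d were 6.85 and 7.52, and neither passed. CD3D was well above background on 3 arrays at 120 d.

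**Figure D4:**
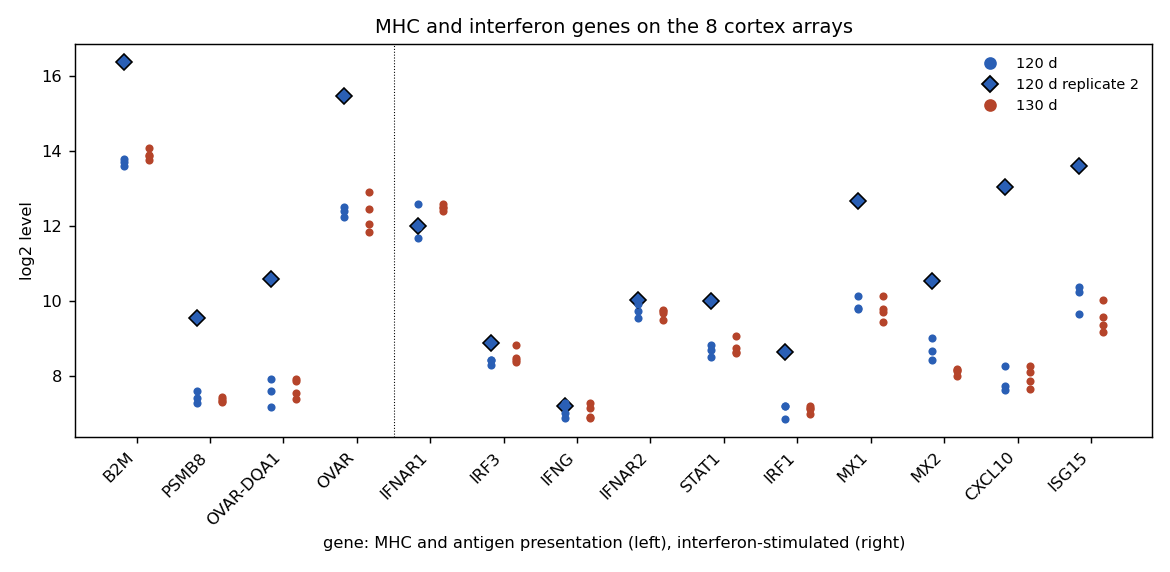
The log2 level of 4 MHC and antigen presentation genes (left of the dotted line) and 10 interferon-stimulated genes (right) is plotted for the 8 cortex arrays, 120 d in blue and 130 d in red, with 120 d replicate 2 as a diamond. The diamond is the highest point for all 4 genes on the left and for 8 of the 10 on the right, at 16.36 for B2M and 13.04 for CXCL10.

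Markers of other tissues varied between arrays of both ages. The defining neuron markers with a named probe, SST, NPY and NEUROD1, were abundant on all 8 arrays, and the label of cortex was not contradicted by them. TTR, the transport protein made by choroid plexus, was 11.18, 11.49, 15.89 and 9.27 at 120 d and 11.58, 14.64, 10.20 and 9.81 at 130 d. It was high in 120 d replicate 3 and 130 d replicate 2. The summed level of the 4 choroid plexus markers tested, of 9, spanned 11.9 to 16.2 at 120 d and 13.3 to 15.3 at 130 d. TF is among these 4 and also among the oligodendrocyte markers. Its means were 12.61 at 120 d and 13.73 at 130 d, against 11.96 and 11.56 for TTR. The sum is thus not a measure of choroid plexus alone. AQP1, the water channel of choroid plexus, was not well above background on any of the 8. The summed level of 2 red cell markers, HBB and AHSP, spanned 13.0 to 15.1 and 12.1 to 14.2, with HBB highest, 15.07, in 120 d replicate 2. Of the endothelial markers 6 of 10 were tested, at 11.5 to 11.9 and 11.9 to 12.2 in sum, and of the oligodendrocyte markers 3 of 11, at 11.4 to 14.1 and 13.3 to 14.7. The part of these tissues in the changes above was not tested.

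The neighbouring steps of the cortex series were set beside this one in the same fit, and they share arrays with it at 120 d or 130 d. From 80 d to 100 d 770 genes passed (5.97%) and from 100 d to 120 d 837 (6.49%), against 22 from 130 d to 145 d (0.17%) and 33 from 145 d to 1 d after birth (0.256%). The median SE of a change was 0.118 in all of them. YBX1 had means of 16.19, 16.27, 15.91, 14.91, 14.02 and 13.89 from 80 d to 1 d after birth, and it also fell from 130 d to 145 d, by 0.89 (adjusted p = 0.0018). MYC fell by 0.81 from 100 d to 120 d (adjusted p = 0.0029), and PTGFR, after a rise of 0.36 from 80 d to 100 d (adjusted p = 0.032), fell by 0.73 in the same step (adjusted p = 0.00011). BEGAIN rose by 0.58 from 80 d to 100 d (adjusted p = 0.000176), and EAAT1 by 0.67 from 100 d to 120 d (adjusted p = 0.0479). ADCYAP1 had means of 9.97, 9.59, 10.05, 11.91, 12.85 and 12.62, and among the steps only that from 120 d to 130 d passed. COL4A3, HPCAL1 and ATP6V1E1 likewise passed in no other step, which does not show that their other steps differ from this one. GLUT-1 fell by 0.53 between 145 d and 1 d after birth (adjusted p = 0.0473).

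The step from 80 d to 100 d compares other arrays than the one described. Both tests use the same spread, pooled over all 24 cortex arrays, so passes in both steps are not independent. Of the 103 genes that rose between 120 d and 130 d, 81 were also higher at 100 d than at 80 d and 15 of them passed there, while 46.2% of all genes tested were higher. Of the 62 that fell, 40 were lower at 100 d and 10 passed. Over all 12905 genes tested, 327 passed as higher in that step and 443 as lower. From 145 d to 1 d after birth, 40 of the 103 were higher and 43 of the 62 lower, with 43.9% of all genes higher.

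In the other regions of the series 0 genes passed between 120 d and 130 d (0% of 12780 tested in brainstem, 12931 in hypothalamus and 12689 in hippocampus, in limma). Before adjustment the p was under 0.05 for 365, 350 and 238 genes in that order. The median SE of a change was 0.153 in brainstem, 0.193 in hypothalamus and 0.328 in hippocampus, above that of cortex. The difference between regions was tested for brainstem and hypothalamus. ADCYAP1 was the 1 gene of 12543 whose step differed between cortex and brainstem (0.00797%), with a step larger by 2.02 in cortex (SE 0.35, adjusted p = 0.0116). In brainstem it was 12.57 ± 0.18 at 120 d and 12.41 ± 0.25 at 130 d (SD, n = 4 each), a change of -0.17. In hypothalamus it was 13.31 ± 0.10 and 13.30 ± 0.32, and in hippocampus, with a wide spread, 10.78 ± 1.38 and 11.41 ± 0.65. The difference from hypothalamus was 1.88 and did not pass (adjusted p = 0.249), nor did that of any of 12620 genes (0%, with 592 at an unadjusted p under 0.05). The difference from brainstem was lost with the replicate number as a block, with the brightest probe of each gene in place of the mean of its probes, and without cortex 120 d replicate 2 or 3, cortex 130 d replicate 2 or brainstem 130 d replicate 1, when 0 genes passed, while 28 passed without cortex 120 d replicate 4. No slide held arrays of more than 1 region, so for the levels region and slide cannot be told apart. In cortex and in brainstem each slide held arrays of both ages. With the slide as a block the same 1 gene passed for the difference from brainstem.

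YBX1 had steps of -0.13 in brainstem, -0.44 in hypothalamus and -0.46 in hippocampus, and its step in cortex was not shown to differ from brainstem (-0.87, adjusted p = 0.66) or hypothalamus (adjusted p = 1.00). COL4A3 differed from brainstem by -0.96 and from hypothalamus by -1.14, neither past the test (adjusted p = 0.483 and 0.249), and EE802379 from brainstem by 1.24 (adjusted p = 0.203). GLUT-1 had steps of 0.19, 0.63 and 0.97 in brainstem, hypothalamus and hippocampus, and MYC of -0.51, 0.05 and -0.41. Of the 62 genes that fell in cortex, 53 were lower at 130 d in brainstem, 47 in hypothalamus and 45 in hippocampus. Of the 103 that rose, 66 were higher in brainstem, 61 in hypothalamus and 59 of 102 in hippocampus, where 51, 47.9 and 47.4% of all genes were higher. The labels do not tie arrays of different regions to a fetus, so these counts may not be from independent animals.

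**Figure D5:**
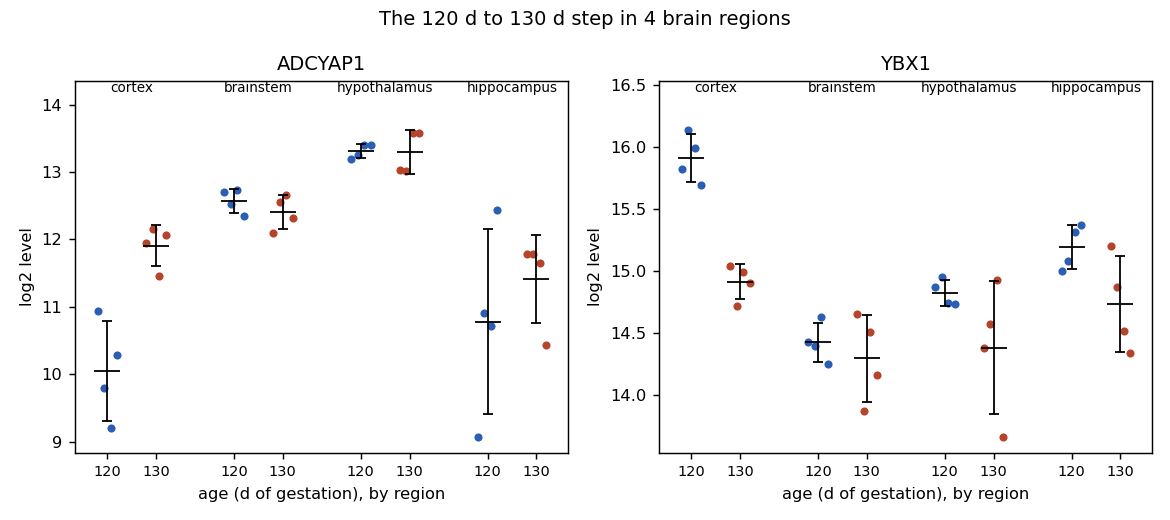
The log2 level of ADCYAP1 (left) and YBX1 (right) is plotted at 120 d (blue) and 130 d (red) in cortex, brainstem, hypothalamus and hippocampus, with a point for each array, a bar for the mean and whiskers of 1 SD (n = 4 per group). ADCYAP1 goes from 10.05 to 11.91 in cortex and from 12.57 to 12.41 in brainstem, and YBX1 is highest in cortex at 120 d, at 15.91.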

How the data were processed

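RNA from the frontal cortex at 120 d and 130 d of gestation (4 arrays each) was analysed together with the other 87 arrays of the series. The authors labeled it with Cy3, hybridized it to Agilent arrays and deposited, per array, the mean intensity, local background intensity and processed signal of each spot from Feature Extraction (10.1.1.1 per the file headers). The authors also deposited a table of normalized log2 values. It served as an alternative, and each of its 95 columns correlated best with its own array here.

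Background was removed by normexp with an offset of 50, which narrows changes of dim probes, and values were quantile normalized over 95 arrays (limma 3.58.1, R 4.3.3). Control and outlier-marked spots were left out, so that 94 probes had no value on at least 1 of the 8 arrays. A probe was kept when 1.1 times the 95th percentile of 77 negative controls was reached on at least 4 cortex arrays (13441 probes, averaged per gene name). Of 15008 probes 1562 had a symbol, from the files or from RefSeq (ARS-UI_Ramb_v3.0), with 703 accessions, 500 symbols, 125 gene identifiers and 20 synonyms found there. The number of arrays limits the precision.

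All 24 cortex arrays were fitted with age as a factor (lmFit, eBayes), and the contrast was adjusted by Benjamini-Hochberg over all genes. Differences between regions were tested in fits over 48 arrays. The authors' method for time courses was replaced by limma. Intervals are from the same fit. The tests were run on simulated data first. Members and lists were chosen with earlier results of these data known. Genes with a symbol were named by rule: up to 12 rises and 12 falls, filled by smallest p where fewer passed without overlap, list members that passed, and genes of the study's text. At most 2 accessions per direction were added. CXCL10, ISG15, MX1, other list members and marker genes fall outside it and are examples. Alternatives were the offset, normalization, processed signal, filter, probe rule, blocks, eBayes settings, threshold and leaving out each array. Figures were drawn with matplotlib 3.10.9 (Python 3.11.15, pandas 2.3.3).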

Additional observations from a re-analysis of the deposited data

Results flagged for a closer look

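Of 80 groups of 4 arrays looked at, 6 held an array far from the other 3, and chance gives about 1 in 20. In cortex at 120 d, replicate 2 was far above the others for B2M (16.36 against 13.60 to 13.77), OVAR (15.44 against 12.25 to 12.49), MHCII-DRB1 (11.86 against 8.14 to 8.25) and PSMB8 (9.57 against 7.29 to 7.62), all log2 levels. CD1D was lower in 120 d replicate 1 (8.37 against 8.80 to 8.88). TGFB1 was higher in 120 d replicate 4 (7.51 against 7.30 to 7.31). The step of ADCYAP1 differed between cortex and brainstem by 2.02 on the log2 scale (limma adjusted p = 0.0116). On the array surface, the medians of 32 blocks of spots lay within -0.13 to 0.08 of the other arrays of the age on all 8 arrays.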

How the results depend on the processing

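Against 165 genes past the test between 120 d and 130 d in cortex, there were 46 with processed signals, each array scaled to its 75th percentile (71.7% of them higher, against 62.4%), 361 with the slide as a block, 419 with the slide as a random block, 7 at an adjusted p under 0.01 and 0 with only the 8 arrays of these ages. The other settings gave 132 to 175. With the replicate number as a block (replicate block) 408 passed, including all 165. The numbers were not taken to pair the arrays, since the labels do not say that they do. The correlations of deviations between equal numbers were 0.172, 0.0232, 0.148 and 0.466, and 3 of 4 arrays matched their own number best. Those 3, replicates 1, 3 and 4, were on the same slide at both ages, and replicate 2 was not. Number and slide cannot be told apart in this match, and its cause was not tested. Leaving out 1 array gave 10 to 918. The difference from brainstem, 1 gene, became 2 with the processed signal, 0 with the brightest probe of each gene, 0 with the replicate block, and 0 to 28 without 1 array. The difference from hypothalamus, 0 genes, became 1 with the slide as a block and 0 to 4 without 1 array. No named gene that passed changed direction. Over the 39 named genes and all these settings 655 values kept their side of the threshold, 83 lost a call and 41 gained one. ADCYAP1 and YBX1 passed in 11 of 12 alternatives and without any 1 of the 8 arrays, and the other named calls in 8 to 11 of 12. With only the 8 arrays none of the single-gene calls held. The cause was not tested. Signal over background limits the dim genes, as FCGR2B was well above background on 2 arrays at 120 d and 3 at 130 d.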

Other observations

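In each of the other regions 1 array at 120 d was also above the rest for B2M. In brainstem this was replicate 3 at 16.98, with the others at 13.83 to 14.55. In hypothalamus it was replicate 4 at 16.99, with the others at 14.51 to 15.00. In hippocampus it was replicate 2 at 16.60, but there replicate 4 was also far from the rest, low at 11.82. Hippocampus replicates 1 and 3 were at 14.41 and 14.45. The labels do not tie the arrays of different regions to a fetus, so it was not tested whether the highest arrays come from the same animal.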
